A study of Homo sapiens with 31 samples.

Results

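The circRNAs of the MSANTD3-TMEFF1 locus are the back-splice structures on the plus strand of chromosome 9 whose donor and acceptor both lie between positions 103180000 and 103345000 of hg19. This interval holds the gene MSANTD3, the gene TMEFF1 downstream of it, and the transcript ENST00000502978, in which an exon of the first is spliced to exons of the second. Membership was decided by position alone, without use of read counts. 12 of the 55371 structures in the deposited list met the rule, and they carried 8332 of the 1029205 back-splice reads, or 0.810%.

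H9, an established human embryonic stem (ES) cell line, was differentiated towards retina, and total RNA was sequenced in 15 libraries, 3 for each of 5 conditions. The day 0 libraries came from undifferentiated, untreated cells, and the others from cultures at day 45 and at day 90, each either untreated or given insulin-like growth factor 1 (IGF-1) at 5 ng/ml, raised to 10 ng/ml on day 37. All conditions share this single line, with no genetic change named in the labels, and later cultures are mixtures of cell types, so that fewer cells of a type and less RNA per cell cannot be told apart. The labels number the replicates, and the study describes them as biological replicates from cultures grown in triplicate, so that p-values measure the spread between cultures of this line.

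CircRNAs form when the spliceosome joins the 3' end of an exon to the 5' end of the same or an upstream exon, which leaves a closed ring without ends for exonucleases. TMEFF1, also called tomoregulin-1, is a membrane protein of the nervous system with follistatin-like domains and an EGF-like domain, known as an inhibitor of Nodal signalling through the co-receptor Cripto. MSANTD3 encodes a protein with a Myb/SANT DNA-binding domain, and a readthrough transcript arises when transcription continues past the end of one gene into the next.

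The members are named by donor exon and then acceptor exon, with exons numbered along the 10 exons of the readthrough transcript, in which exons 2 to 10 are also exons 2 to 10 of TMEFF1. All 12 members had both ends at annotated exon ends. None of the 12 used exon 1 of the readthrough transcript or any other exon of MSANTD3, with 0 of 8332 reads. For junctions that the search could call, this allows a share of up to 0.0360% (3 reads, counting error only). The study searched for junctions within annotated transcripts, guided by junctions already known, and the only MSANTD3 part of the readthrough transcript is its first exon. It also reports a search without annotation, but all 12 members here carry the names of annotated transcripts. Circles that join exons of both genes could thus have gone uncalled in the search within transcripts, and the 0 sets no limit on them. The list named 7 of the members, with 8313 reads, after the readthrough transcript, yet each of these junctions joins exons that TMEFF1's own transcript also contains. The back-splice reads therefore cannot tell circles of a TMEFF1 transcript from circles of the readthrough transcript. No other structure of the list, on either strand, overlapped the interval.

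circTMEFF1:E5-E2, at chr9:103261047-103279053, carried 7496 of the locus reads, 90.0%. It spans 18007 bases of genome, in which the annotation places 4 coding exons with a spliced length of 364 nt. Exon contents and spliced lengths of all members are those of the annotation, as only the junctions were counted. Exons 2, 3 and 4 of this interval are printed here from the GRCh37 genome, whose coordinates are those of hg19, because nearly all reads of the locus come from its junction.
exon 2, chr9:103261047-103261156: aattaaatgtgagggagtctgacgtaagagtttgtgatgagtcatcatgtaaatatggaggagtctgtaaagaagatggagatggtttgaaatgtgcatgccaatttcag
exon 3, chr9:103271287-103271416: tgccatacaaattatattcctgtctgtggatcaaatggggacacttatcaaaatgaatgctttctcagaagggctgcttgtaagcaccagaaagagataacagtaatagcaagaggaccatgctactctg
exon 4, chr9:103275589-103275615: ataatggatctggatctggagaaggag
Exon 4 is a microexon of 27 bases. It was never an end of a structure, although members that span it carried 96.8% of the locus reads. Counts of back-splice junctions do not tell whether it is kept inside the circle.

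The junctions of the 6 members with at least 10 reads are printed with 20 bases of the donor exon in lower case and 20 bases of the acceptor exon in capitals, since it is this join that a read had to cover to be counted.
E5-E2: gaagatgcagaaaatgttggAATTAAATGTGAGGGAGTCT
E7-E2: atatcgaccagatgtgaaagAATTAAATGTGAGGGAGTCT
E3-E2: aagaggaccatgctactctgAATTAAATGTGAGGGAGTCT
E8-E2: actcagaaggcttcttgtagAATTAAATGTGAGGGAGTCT
E5-E3: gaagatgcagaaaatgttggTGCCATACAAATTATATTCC
E8-E6: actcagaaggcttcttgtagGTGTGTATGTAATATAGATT
The acceptor of exon 2, the capitals shared by the first 4 of these sequences, was used by 6 structures with 8205 reads, 98.5% of the locus. The donor of exon 5, the lower-case part shared by E5-E2 and E5-E3, was used by 3 structures with 7608 reads, 91.3%. Members thus shared ends, and their counts are not independent measurements of separate loci.

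The splice sites at these ends are shown with 10 exon bases in capitals and 20 intron bases in lower case.
acceptor before exon 2: acaatttttttcttttgcagAATTAAATGT
donor after exon 5: AAAATGTTGGgtgagttggttgaggggaag
Every exon from 2 to 9 is bounded by AG before it and GT after it. The introns that flank E5-E2 are the longest of TMEFF1, at 25024 bases before exon 2 and 30972 bases after exon 5, whereas its other introns run from 2202 to 11236 bases. In the readthrough transcript the intron before exon 2 is 56408 bases long. The longest stretch that could pair between the 1000 bases before exon 2 and the 1000 bases after exon 5 was 11 bases, against a median of 12 over the 12493 circRNAs of at least 10 reads for which flanks were read, and 68.1% of them reached 11 or more. With 2000 bases on each side the stretch was 12 bases against a median of 17.

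**Figure D1:**
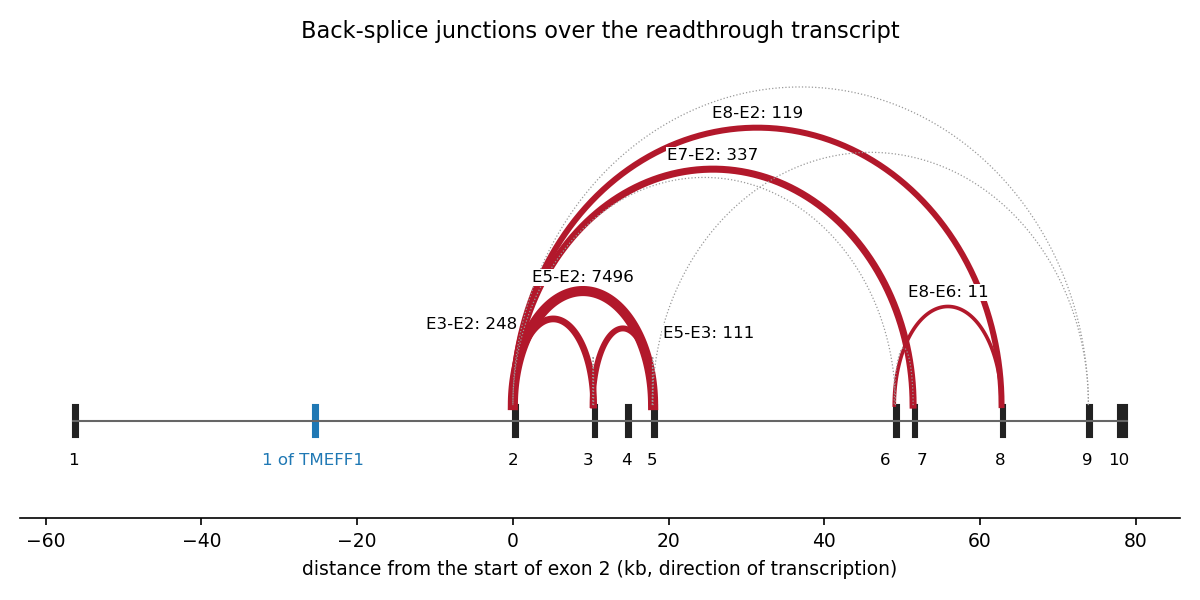
Back-splice junctions of the locus along the readthrough transcript, with distance from the start of exon 2 in kb on the horizontal axis, exons as numbered boxes (drawn at least 0.6 kb wide), the first exon of TMEFF1's own transcript in blue, and arcs from acceptor to donor. Red arcs are the members with at least 10 reads, thicker with more reads and labelled with their summed count (7496 for E5-E2), and grey dotted arcs are members with fewer than 10 reads; no arc reaches either first exon.

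Among the members after E5-E2, E7-E2 had 337 reads and an annotated length of 579 nt, and E3-E2 had 248 reads and 240 nt. E8-E2 had 119 reads and 703 nt, and E5-E3 had 111 reads and 254 nt. E8-E6, which starts downstream of the long intron after exon 5, had 11 reads. The remaining 6 members had 10 reads between them, 4 for E9-E2, 2 for E7-E6 and 1 each for E9-E5, E5-E5, E6-E2 and E3-E3, all in libraries of day 45 or day 90. E9-E2 had 2 reads in replicate 2 and 1 in replicate 3 of untreated day 45 and 1 in replicate 2 of untreated day 90, and E7-E6 had 1 each in replicates 1 and 3 of untreated day 45. The single reads of E5-E5 and E3-E3 were in replicate 2 of untreated day 90, that of E6-E2 in replicate 2 of untreated day 45, and that of E9-E5 in replicate 2 of day 90 with IGF-1. These 6 fell below the filter of 10 summed reads and were not tested.

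With every annotated exon between the ends kept and read in the frame of the TMEFF1 coding sequence, none of the 12 circles met a stop codon before its junction. In E5-E2 the length leaves a remainder on division by 3, so that the frame shifts at the junction, and a stop codon follows after 19 bases of exon 2. The length was a multiple of 3 in E7-E2, E3-E2, E8-E6 and E6-E2, and in these the frame ran round the circle without a stop. Only in E8-E6 did a frame without a stop hold a start codon. Read from a start codon, the longest frames of E7-E2, E3-E2 and E6-E2 had 45, 24 and 45 codons and did not cross the junction. In E5-E2 the longest such frame had 168 codons and in E8-E2 282, and both crossed the junction. These are properties of the sequence, and translation was not measured.

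With 8332 reads, the locus ranked 4th of 8094 genes with back-splice reads and 3rd of the 7802 protein-coding genes. Its leading junction ranked between 4 and 5 among all circRNAs in each of the 12 later libraries and between 4 and 11 in the 3 day 0 libraries. Of the 163 genes with at least 1000 reads, the median gene had 59.7% of its reads in its leading structure and 19 structures, against 90.0% and 12 here, and 20.9% of these genes had a share as high as that of the locus. TMEFF2, the paralogue of TMEFF1 with the same domain types, had 1 read in the 15 libraries.

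Libraries held between 14992 and 108946 back-splice reads, with the 3 lowest totals at day 0. Levels are given as counts per 1000000 sequenced reads (RPM), with the sequenced reads of each library taken from the study's own list. In it day 90 replicates 1 and 2 cannot be told apart and were given their mean. The study's normalised counts imply that the list exchanges the read numbers of untreated day 90 and of day 45 with IGF-1. RPM values and tests of these 2 conditions use the list as given, and the exchange is an alternative reported at the end. On this scale all back-splice reads together lay at 106 to 128 RPM in the day 0 libraries and at 309 to 984 RPM in the later ones. Of the 15 pluripotent cell markers listed, 8 had back-splice reads, at a summed 2.31 to 4.22 RPM at day 0 and 0.172 to 1.52 RPM later, and most of this came from FIRRE. Of the 15 retinal and neural markers, 6 had reads, at 0.221 to 0.274 RPM at day 0 and 4.16 to 19.1 RPM later, mostly from RMST. POU5F1, NANOG, PAX6, RAX, CRX and RCVRN had no back-splice reads, so these circRNA counts give no check of the labels from them. Their part in the results on TMEFF1 was not tested.

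The first question was how the locus changed between ES cells and differentiating retina. At day 0 the locus had 69, 87 and 108 reads, or 0.553, 0.611 and 0.770 RPM. At day 45 it had 922, 739 and 717 reads, or 8.32, 5.34 and 4.89 RPM. All 3 day 45 libraries were above all 3 of day 0, and replicate 1 of day 45 was the highest of the 15 libraries.

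The mean rose from 0.645 ± 0.113 to 6.19 ± 1.87 RPM (SD, n = 3 each). In edgeR's quasi-likelihood test with 1 value per gene, fitted over all genes and libraries, the log2 change was 3.26 (SE 0.38, Benjamini-Hochberg adjusted p = 1.45e-15), a fitted 9.57-fold increase. 63.4% of the 4933 genes tested were called higher at day 45, and their median log2 change was 2.81, so the locus changed by little more than the median gene. 38.9% of the genes tested had a log2 change at least as large. In an edgeR fit of the 2787 genes with at least 50 reads, 2460 were called higher. An exact permutation test of the 3 against 3 libraries gave p = 0.1, the smallest that this design allows. With day 0 set against all 12 later libraries, the exact permutation p was 0.00220, also the smallest possible. This test, like the later ones of day 0 against all later libraries, treats the 12 as independent although they differ in day and treatment. At day 45, untreated and IGF-1 libraries of the same replicate number also shared deviations from their condition means.

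At untreated day 90 the locus had 408, 690 and 724 reads, or 2.94, 4.98 and 4.72 RPM. The 3 libraries again lay above every day 0 library. The mean of 4.22 ± 1.11 RPM was above that of day 0, with a log2 change of 2.71 (SE 0.38, edgeR adjusted p = 3.21e-11). At this time 45.3% of genes were called higher, and the median log2 change was 2.14. In an edgeR fit of the 2787 genes with at least 50 reads, 1988 were called higher.

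**Figure D2:**
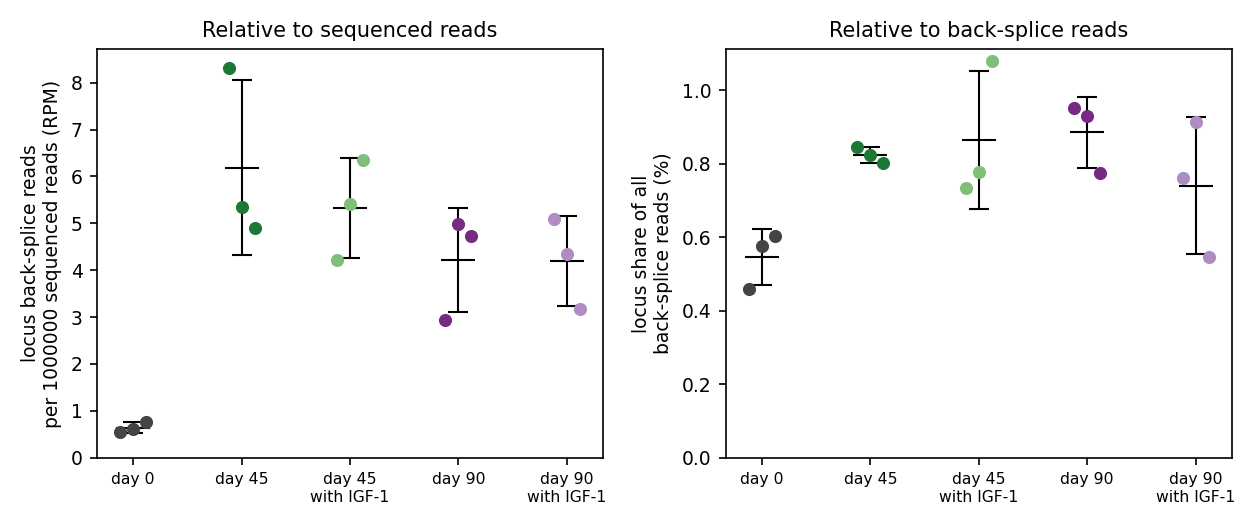
Locus back-splice reads in each library by condition, left per 1000000 sequenced reads and right as a percentage of all back-splice reads of the library. Points are libraries, horizontal bars the mean of 3 and whiskers the SD; on the left the day 0 libraries lie at 0.553 to 0.770 RPM and all others at 2.94 RPM or above, while on the right day 0 overlaps the lowest later library, at 0.546%.

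Since most genes gave more back-splice reads per sequenced read after day 0, the locus was also expressed as a share of all back-splice reads. This share was 0.460%, 0.576% and 0.602% at day 0. It ran from 0.546% to 1.08% in the 12 later libraries, with a median of 0.813%, and the lowest of them, replicate 3 of day 90 with IGF-1, lay below 2 of the day 0 libraries. The later mean was higher by 0.283 percentage points (exact permutation test, two-sided, p = 0.00659). Without day 0 replicate 1, the lowest library, the difference was 0.240 points with p = 0.0549 in the same exact test.

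Scaling the gene counts to back-splice reads lowered the change of the locus to 0.59 at day 45 (SE 0.22, edgeR adjusted p = 0.0637), which is not past the threshold, and to 0.69 at day 90 (adjusted p = 0.0234). TMM factors on back-splice totals gave 1.04 at day 45 and 1.14 at day 90, both called, where the median of all genes was 0.83 and 0.75. On back-splice totals 303 genes were called higher and 255 lower at day 45, against 3129 and 18 per sequenced read. The direction for the locus was upward under each of these scalings.

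**Figure D3:**
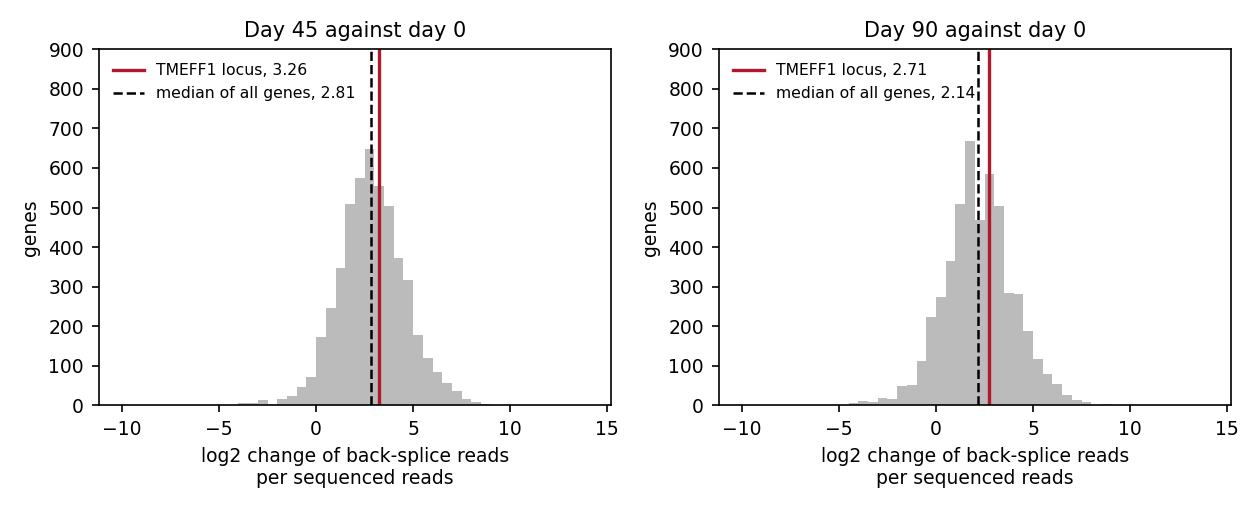
Histograms of the log2 change in back-splice reads per sequenced reads over the 4933 genes tested, at day 45 (left) and day 90 (right) against day 0, with the number of genes on the vertical axis. The red line marks the locus, at 3.26 and 2.71, and the dashed line the median of all genes, at 2.81 and 2.14; the locus lies just above the median in both.

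E5-E2, the most abundant member, followed the locus. It had 60, 69 and 97 reads at day 0, and 793, 674 and 629 reads at day 45, with no overlap. Its log2 change was 3.30 (SE 0.42, edgeR per circRNA, adjusted p = 8.81e-13) at day 45. At day 90, with 374, 623 and 660 reads, the change was 2.79 (SE 0.41, adjusted p = 2.1e-09). With IGF-1 it had 400, 650 and 821 reads at day 45 and 608, 622 and 416 at day 90, which overlapped the untreated counts at the same times.

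Among all 12498 circRNAs tested, 40.9% were called higher at day 45 and 21.7% at day 90. Of the 6 members tested, 5 were called higher at day 45 and 4 at day 90, and none was called lower. DESeq2's Wald test also called 5 and 4, beside 32.7% and 20.4% of all circRNAs. Calls were more frequent among circRNAs with more reads. In an edgeR fit of the 3469 with at least 50 reads, 3024 were called higher at day 45 and 2375 at day 90. Each of the 5 called members had at least 111 reads. E7-E2, whose donor lies at exon 7, had 2, 4 and 4 reads at day 0, 53, 29 and 39 at day 45, and 12, 26 and 28 at day 90. Its log2 changes were 3.64 (SE 0.57) at day 45 and 2.60 (SE 0.59) at day 90, and every library of either later condition was above those of day 0. With IGF-1 it had 21, 30 and 24 reads at day 45 and 21, 20 and 24 at day 90.

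E8-E2, whose span covers 7 annotated exons, had 1, 1 and 0 reads at day 0 against 26, 7 and 12 at day 45 and 11, 8 and 6 at day 90. Both changes were called, with adjusted p = 4.45e-06 and 0.00242 in edgeR. As only 2 reads stand for day 0, the ratio of summed counts per sequenced reads was 23.2 at day 45, with a 95% interval of 6.05 to 197 from counting error alone. The IGF-1 libraries had 3, 3 and 15 reads at day 45 and 17, 6 and 3 at day 90.

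E5-E3, whose acceptor lies downstream of exon 2, had 2, 1 and 3 reads at day 0, 20, 8 and 12 at day 45, and 1, 8 and 10 at day 90. The change was called at day 45 (2.75, SE 0.72, edgeR adjusted p = 0.00104) but not at day 90 (1.51, SE 0.78, adjusted p = 0.137), where 1 library overlapped day 0. Without that library, day 90 replicate 1, the day 90 change was 2.00 with an edgeR adjusted p of 0.0444. The IGF-1 libraries had 6, 11 and 5 reads at day 45 and 11, 8 and 5 at day 90.

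E3-E2, which joins the adjacent exons 3 and 2, had 4, 11 and 3 reads at day 0. It had 28, 14 and 23 at day 45, and 10, 22 and 20 at day 90. It was called higher at day 45 with a log2 change of 1.92 (SE 0.55, edgeR adjusted p = 0.00291) and at day 90 with 1.44 (SE 0.56, adjusted p = 0.047), and day 0 replicate 2 overlapped the day 90 libraries. Relative to back-splice totals these changes turned to -0.75 and -0.61, neither called. The call at day 90 was also lost without day 0 replicate 1 or 3 or day 90 replicate 2 or 3, at edgeR adjusted p of 0.147, 0.191, 0.163 and 0.106. The IGF-1 libraries had 15, 29 and 26 reads at day 45 and 14, 15 and 14 at day 90.

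E8-E6, the only member with at least 10 reads that uses neither exon 2 nor the donor of exon 5, had 0, 1 and 1 reads at day 0, 1, 4 and 0 at day 45, and 0 in each library of untreated day 90. With IGF-1 it had 0, 2 and 0 reads at day 45 and 2, 0 and 0 at day 90. It was too rare for a fold change and was called in no comparison.

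The calls of members against day 0 depended on the scale. Relative to back-splice totals edgeR called 0 of the 6 at either time, with 1 at day 45 and 2 at day 90 at an unadjusted p under 0.05, and E5-E2 had log2 changes of 0.64 (adjusted p = 0.185) and 0.79 (adjusted p = 0.0545). On this scale 1.65% and 1.94% of all circRNAs were called higher. With TMM factors 3 members were called at day 45 and 1 at day 90, beside 6.27% and 5.9% of all circRNAs, and with DESeq2 size factors 1 at either time, beside 2.57% and 2.88%.

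**Figure D4:**
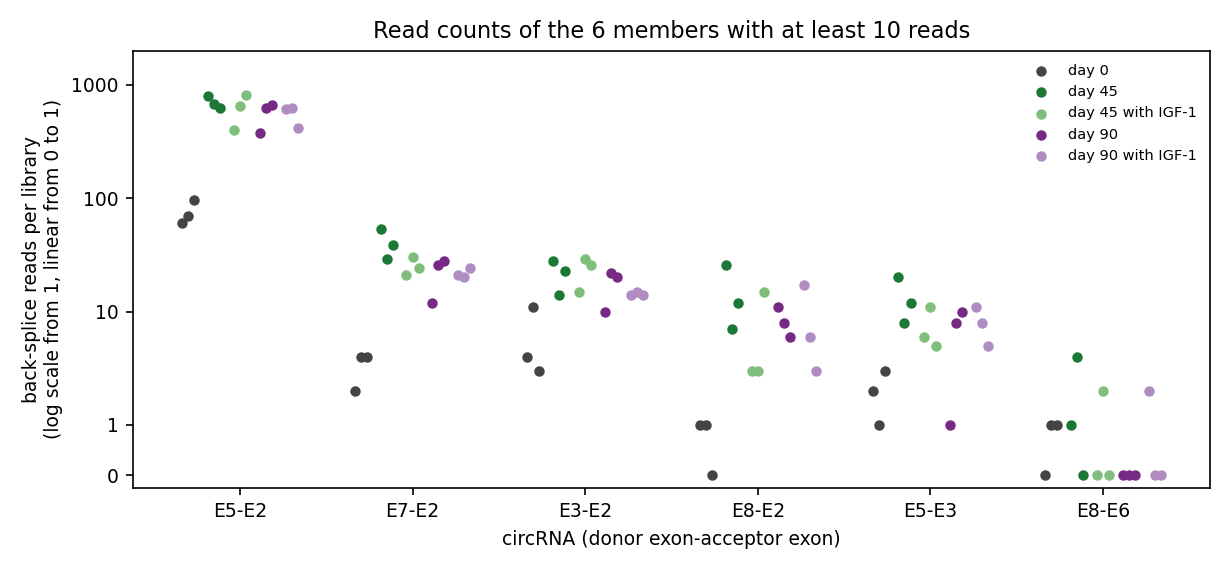
Back-splice reads per library of the 6 members with at least 10 reads, coloured by condition, on a vertical axis that is logarithmic from 1 and linear between 0 and 1. E5-E2 lies between 60 and 97 reads at day 0 and between 374 and 821 later; for E3-E2 one day 0 library, with 11 reads, reaches into the later range.

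The make-up of the locus was compared next. E5-E2 held 87.0%, 79.3% and 89.8% of the locus reads at day 0, and between 86.0% and 92.6% in the 12 later libraries. The means of 85.4% and 90.2% differed by 4.86 percentage points (exact permutation test, two-sided, p = 0.0242). This difference rests on day 0 replicate 2, in which 11 of 87 reads belonged to E3-E2. Without it the difference was 1.84 points and the exact permutation p = 0.198, and against untreated later libraries alone it was 4.32 points with p = 0.0833.

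The share of E3-E2 was 5.80%, 12.6% and 2.78% at day 0 and 1.89% to 4% later. Pooled over libraries it was 18 of 264 reads (6.82%, 95% exact binomial interval 4.09% to 10.6%) at day 0 and 230 of 8068 reads (2.85%, 2.50% to 3.24%) later. Replicates 1 and 2 of day 0 lay above the later range and replicate 3 within it, and no test was made of this difference, which was noticed in the values. E7-E2 held 3.79% of the reads at day 0 and 4.05% later. The share of reads with an end in an exon of MSANTD3 was 0 in every library, so no comparison of it between conditions was possible.

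Between day 45 and day 90 the data did not separate the untreated conditions. The 3 day 90 values of 2.94, 4.98 and 4.72 RPM overlapped the 3 of day 45, which reached down to 4.89 RPM. The log2 change was -0.55 (SE 0.35, edgeR adjusted p = 0.437), in a comparison in which 0.385% of genes were called and the median of all genes was -0.64. The exact permutation p was 0.2. Under IGF-1 the change from day 45 to day 90 was -0.35 (SE 0.35, edgeR adjusted p = 0.994), with 0.0811% of genes called.

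IGF-1 was tested at both times. With IGF-1 the locus had 445, 725 and 891 reads at day 45, or 4.21, 5.42 and 6.36 RPM, which overlapped the untreated 8.32, 5.34 and 4.89 RPM. The log2 change was -0.21 (SE 0.35, edgeR adjusted p = 0.992), and 0.0203% of genes were called. Leaving out untreated replicate 1 turned it to 0.06.

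At day 90 with IGF-1 the locus had 673, 672 and 462 reads, or 5.08, 4.34 and 3.17 RPM, against 2.94, 4.98 and 4.72 RPM untreated. The means of 4.20 ± 0.967 and 4.22 ± 1.11 RPM (SD, n = 3 each) were nearly equal. The log2 change was -0.01 (SE 0.35, edgeR adjusted p = 1), again with 0.0203% of genes called. The effects of IGF-1 at the 2 times differed by 0.21 (SE 0.49, edgeR interaction test, adjusted p = 0.964). In edgeR and in DESeq2's Wald test 0 of the 6 tested members were called in either IGF-1 comparison, with 0 at an unadjusted p under 0.05 in each. Of all 12498 circRNAs edgeR called 2 for IGF-1 at day 45 and 1 at day 90, with 572 and 521 at an unadjusted p under 0.05. Between untreated day 45 and day 90 both tools also called 0 of the 6, where 3 in edgeR and 1 in DESeq2 had an unadjusted p under 0.05. Of all 12498 circRNAs edgeR called 10 there and DESeq2 1, with 1201 and 608 at an unadjusted p under 0.05.

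Libraries also differed in sequencing quality, in the share of bases at Q30 or above listed by the study. Apart from day 90 replicates 1 and 2, whose values the list does not tell apart, the 13 others fall into 3 groups, each with 1 library of day 0 and 1 of untreated day 45. The ratio of day 45 to day 0 RPM of the locus was 15.1 in the group of lowest quality and 6.35 and 8.73 in the others. The ratio of IGF-1 to untreated at day 45 was 0.506 in the lowest group and 1.30 and 1.01 in the others. Each group holds a single pair, and the part of quality in these ratios was not tested. The study also reports that RNA integrity fell somewhat over time, and was higher in all undifferentiated samples than in any later one. RNA integrity thus changed together with the day, unlike the Q30 groups. Its part in the changes against day 0 was not tested.

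The pathways in which TMEFF1 acts were examined through their own circRNAs. Of the 31 genes listed for Nodal and activin signalling, 17 had back-splice reads and 9 could be tested, of which 7 were called higher and 0 lower at day 45 and 5 higher at day 90. The median log2 change of the 9 at day 45 was 2.76, or 1.57 when the 3 genes without day 0 reads were placed at the lower bound that 3 counts over the day 0 libraries give. ACVR2A, an activin type II receptor, had a log2 change of 4.15 at day 45 (edgeR adjusted p = 3.59e-19), and SMAD2, which carries the receptor signal to the nucleus, of 2.76. SKIL, a repressor of SMAD proteins with 869 reads, stood at 0.00 (adjusted p = 1), with 0.361 RPM at day 0 and 0.359 RPM at day 45, while the median of all genes was 2.81. TDGF1, which encodes Cripto, had no back-splice reads.

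Of the 18 genes of BMP signalling, 6 could be tested, with 5 called higher at day 45 and 3 at day 90, and a median log2 change at day 45 of 2.68, or 1.99 with 2 genes at their bound. BMPR2, the type II receptor for BMPs, had a log2 change of 3.28, and BMPR1A, a type I receptor, of 1.90 at day 45. BMPR1B, another type I receptor, had 440 reads and none at day 0. Among 23 proteins with follistatin domains 4 were tested and 2 called higher at either time (median 3.60, or 2.05 with 2 genes at their bound), FSTL5 and SMOC1, both with no reads at day 0, while RECK, an inhibitor of matrix proteases, was not called (edgeR adjusted p = 0.0949) with 1 read at day 0 and 7 at day 45. Of 14 EGF receptors and ligands 2 were tested (median 4.39, or 2.88 with 1 at its bound), and ERBB4, a receptor for neuregulins, was called higher with no reads at day 0, while EGF was not (edgeR adjusted p = 0.303 at day 45), and NRG4 had 5 reads and was not tested. These shares lie beside backgrounds of 63.4% and 45.3%, and none of the lists had a member called lower, or called in a comparison without day 0.

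The neighbours of the locus were read next. Of the 9 genes with back-splice reads within 1000000 bases on either side, 5 could be tested, and 4 were called higher at day 45 and 3 at day 90, beside 63.4% and 45.3% of all genes, with a median log2 change at day 45 of 2.86, or 1.46 with 2 at their bound. STX17, an autophagy SNARE, had a log2 change of 2.36 at day 45 and ERP44, a chaperone of the secretory pathway, went from 2 to 16 reads, a ratio of 8.23 per sequenced reads with a 95% counting interval of 1.94 to 73.8, whereas TEX10 was not called (edgeR adjusted p = 0.168), with 0.0883 RPM in ES cells against 0.0443 RPM on day 45. The 5 tested neighbours were far below the locus in depth, with 13 to 128 reads each. Among 35 other readthrough genes of the list 14 could be tested, of which 8 (57.1%) were called higher at day 45 and 5 (35.7%) at day 90. These lie beside the same 63.4% and 45.3% of all genes, and with 14 genes the difference was not tested. The median log2 change of the 14 at day 45 was 3.32, or 1.36 with 6 at their bound. ANKHD1-EIF4EBP3, with 641 reads, was the most abundant of them, with a log2 change of 3.43 at day 45, and TLCD4-RWDD3 and FMC1-LUC7L2 followed with 3.65 and 4.20. All 35 together had 1636 reads, fewer than the 8332 of the TMEFF1 locus. The sums of the 35 hold only structures assigned to the readthrough gene, whereas that of the locus holds every structure of its interval. Of the locus reads, 8313 were named after its readthrough transcript, but their junctions also lie in TMEFF1's own transcript. The sums are thus not a comparison of readthrough transcription.

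The genes whose back-splice levels were most like those of the locus over the 15 libraries were NIPBL, KMT2C, FBXO7, ATRNL1 and RAB6A, with correlations of log2(RPM + 0.01) of 0.988, 0.988, 0.986, 0.986 and 0.986. The median over the 1905 genes with at least 100 reads was 0.889. As shares of back-splice reads the median correlation was 0.272, and NIPBL and FBXO7 remained among the 5 highest. The points share libraries and depth, and the correlations are a description of these libraries.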

How the data were processed

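Back-splice junctions were called by the authors with PTESFinder, using GENCODE models on the hg19 build. They deposited whole-number counts of back-splice reads for each structure, summed over libraries, with a further column of text that gives the count in each library, a unit recorded as other than a plain number. Counts were not normalised or pooled. Positions were matched to GENCODE 44 on GRCh37, which shares hg19 coordinates. Structures were summed per gene, by the transcript that names them (48401), otherwise by exon ends (6744), and 226 with several genes or none were left out. The 16 FIRRE amplicon samples, linear expression and canonical junctions were not used here. The sequence of exon 5 is not reported here.

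Tests were run in R 4.3.3 with edgeR 4.0.16 (glmQLFit, glmQLFTest), in a single fit of 15 libraries and 5 conditions per table, with library sizes set to sequenced reads, neither TMM factors nor a block, and at least 10 summed counts. Adjustment followed Benjamini and Hochberg over the whole table, with a threshold of 0.05. Standard errors were the log2 change divided by the root of the F statistic. Common dispersions were 0.179 for circRNAs and 0.129 for genes. DESeq2 1.42.0, Fisher's exact test, other scalings, filters, a block, Q30 terms and left-out libraries were alternatives. Single values were compared by two-sided exact permutation tests in Python 3.11.15. Intervals and the limit of 3 counts cover counting error only. In a simulation of day 0 against day 45, 200 features with at least 100 reads were changed 8-fold. Each feature otherwise had its pooled rate over all 15 libraries, with the common dispersion. edgeR found 82% of the 200 among 12498 circRNAs, with 0% of calls false, and 93.5% among 4933 genes, with 1.58% false. Most features had lower rates at day 0 in the data, so these figures do not give the power for rarer features or at day 0 depth.

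Members, gene lists and tests were chosen with earlier results of these data known. The rule named the 10 most abundant members with their counts, which ties extended to all 12, and TMEFF2. It also named the most abundant members of each list and the 5 most similar genes. Any structure that joins exons of both genes was to be named. The list held none, though the search could have missed them. The 6 lists are Nodal and activin signalling, BMP signalling, follistatin-domain proteins, EGF receptors and ligands, neighbours and readthrough genes. Marker lists for pluripotent, retinal and pigment epithelial cells were also read. Of the 7 pigment epithelium markers 3 had reads, at 0 RPM at day 0 and at most 0.0756 RPM later.

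Replicate numbers were checked for pairing over 1906 genes. Deviations from the condition mean correlated at 0.37, 0.189 and 0.165 between untreated and IGF-1 libraries of the same number at day 45. In no other comparison were all 3 values above 0.1, and at day 90 they were 0.0248, 0.15 and 0.0456. At day 45 libraries of the same number also fell in the same Q30 group. Paired cultures and shared sequencing quality therefore cannot be told apart there.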

Additional observations from a re-analysis of the deposited data

How the results depend on the processing

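The locus kept an upward change against day 0 in all settings run, at 0.59 to 3.41 at day 45 and 0.69 to 2.91 at day 90 on the log2 scale, and back-splice totals at day 45 (0.59) was the only setting without a call. Leaving out each library gave 2.99 to 3.41 at day 45 and 2.57 to 2.91 at day 90. Changes between later conditions were small, and all but that from day 45 to day 90 under IGF-1, which was negative in each setting run, turned sign in some setting. Between day 45 and day 90 TMM, back-splice totals and DESeq2 size factors gave 0.10, 0.10 and 0.15, none called, and left-out libraries -0.70 to -0.28. For IGF-1 at day 45 the same scalings gave 0.058, 0.070 and 0.072 and left-out libraries -0.36 to 0.059. At day 90 IGF-1 gave 0.0066 with the lower read number for day 90 replicate 1, 0.015 with the Q30 term in its second assignment, and -0.21 to 0.16 with left-out libraries. The difference of the IGF-1 effects became -0.28, -0.33 and -0.35 under the 3 scalings and -0.067 to 0.37 with left-out libraries. Under IGF-1, day 90 against day 45 gave -0.51 to -0.18 with left-out libraries. The causes were not tested.

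Fisher's exact test on summed counts, which ignores the spread between replicates, called -0.51 between day 45 and day 90, -0.38 under IGF-1 and -0.15 for IGF-1 at day 45. Members called higher were 3, 0 and 1 at day 45 under TMM, back-splice totals and DESeq2 size factors, and 1, 0 and 1 at day 90, where 783, 206 and 321 of 12498 circRNAs were called higher at day 45 and 738, 243 and 360 at day 90. With left-out libraries they were 5 at day 45 and 3 to 5 at day 90, where E3-E2 lost its call. E3-E2 had -0.75 and -0.47 at day 45 and -0.61 and -0.32 at day 90 on back-splice totals and DESeq2 size factors. With the replicate number as a block, which pairs IGF-1 and untreated libraries at day 45, that change was -0.22 (edgeR adjusted p = 1). The block gave 3.26 and 2.70 for the locus against day 0, and only E3-E2 at day 90 lost its call (adjusted p = 0.0591). The share of E5-E2 differed by 1.84 to 7.09 points with left-out libraries and by 4.32 against untreated libraries (p = 0.0833, exact permutation test), and the locus share by 0.240 to 0.311 points. Of the 5 most similar genes 2 stayed among the 5 on shares of back-splice reads, 4 with a pseudocount of 0.05 RPM and 0 by Spearman's rho.

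The study's normalised counts imply that the read numbers of untreated day 90 and of day 45 with IGF-1 are exchanged in its list. Exchanging them was an alternative chosen after seeing the data. The locus then changed by 2.87 from day 0 to day 90 and by -0.39 with IGF-1 at day 45. Of 4933 genes, 2469 were then called higher at day 90, against 2237 with the list as given. Of 12498 circRNAs, 3315 were called higher at day 90, against 2713. Low depth limits E8-E2, E5-E3 and E8-E6 at day 0, with 2, 6 and 2 reads.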
